A study of Mus musculus with 9 samples.

Results

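The macrophage genes described here are 10 genes of phagocyte effectors and surface proteins: Lyz2, Mpeg1, Cd68, Slc11a1, Laptm5, Cd52, Cd53, Cd84, Ly86 and Lag3. They were chosen because their values were much higher in 5xFAD brain than in wild-type brain, so that difference is described below and carries no test. A probe set naming only the gene measured 9 of the 10, each through 1 probe set, out of 19938 genes measured in all. Slc11a1, a metal transporter of the phagosome, was not analysed here. Total RNA of mouse brain, given as cortex in the series' own description, was hybridised to 9 Affymetrix gene arrays, 1 per sample. The wild-type group was B6SJLF1/J mice given PBS (n = 3). The vehicle group was 5xFAD mice given PBS (n = 3), and the amylin group was 5xFAD mice given human amylin, a peptide hormone of pancreatic beta cells (n = 3). All 9 samples came from mice about 5 months old that had been injected into the peritoneum daily for 10 weeks. The 5xFAD line carries transgenes that include mutant human APP under the neuronal Thy1 promoter and forms amyloid plaques. The labels give no background strain for the 5xFAD mice and no sex. They call the samples biological replicates without saying more, so the p-values measure the spread between these samples. Values are log2 intensities, on which a difference of 1 is a doubling, and values of different genes are not set against each other.

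Microglia are the resident macrophages of the brain parenchyma, and other macrophages line the meninges and vessels. These cells take up particles and debris into phagosomes, which fuse with lysosomes, where enzymes and pore-forming proteins break the contents down. Around amyloid plaques microglia gather, swell their lysosomal compartment and raise many of the genes described here. In whole tissue, more cells of a type and more RNA per cell cannot be told apart.

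Promoter sequence is shown for the 2 effectors that stood out most, Lyz2 with the largest rise and Cd68 with groups that separated under amylin. It is also shown for Mpeg1, which held no motif match, and for Cd84, which shared motifs with Lyz2 and Cd68. RefSeq promoters were matched for 7 of the 9 measured genes, all but Cd52 and Lag3. Each sequence is the 250 bases before the transcription start in GRCm38.p6, in the direction of the gene. The windows are chr10:117282273-117282522 on the minus strand for Lyz2, chr11:69666171-69666420 on the minus strand for Cd68, chr19:12460520-12460769 on the plus strand for Mpeg1 and chr1:171839447-171839696 on the plus strand for Cd84. Capitals mark every match, on either strand, to the motifs named in the next paragraph.
Lyz2: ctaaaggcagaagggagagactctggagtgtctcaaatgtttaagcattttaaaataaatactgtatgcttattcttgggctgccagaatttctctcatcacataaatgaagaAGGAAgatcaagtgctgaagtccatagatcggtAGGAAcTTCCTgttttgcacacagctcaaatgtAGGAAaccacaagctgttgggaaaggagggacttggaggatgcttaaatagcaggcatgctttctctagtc
Cd68: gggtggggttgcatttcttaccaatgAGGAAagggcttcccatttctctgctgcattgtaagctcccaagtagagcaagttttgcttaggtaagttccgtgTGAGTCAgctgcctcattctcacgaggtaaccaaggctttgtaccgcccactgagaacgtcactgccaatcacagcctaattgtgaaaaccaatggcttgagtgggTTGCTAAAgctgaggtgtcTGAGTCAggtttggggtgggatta
Mpeg1: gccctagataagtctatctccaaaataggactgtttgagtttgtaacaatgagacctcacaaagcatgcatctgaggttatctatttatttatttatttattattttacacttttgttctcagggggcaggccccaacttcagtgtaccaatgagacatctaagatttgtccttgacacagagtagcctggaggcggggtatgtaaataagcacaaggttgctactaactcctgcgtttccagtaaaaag
Cd84: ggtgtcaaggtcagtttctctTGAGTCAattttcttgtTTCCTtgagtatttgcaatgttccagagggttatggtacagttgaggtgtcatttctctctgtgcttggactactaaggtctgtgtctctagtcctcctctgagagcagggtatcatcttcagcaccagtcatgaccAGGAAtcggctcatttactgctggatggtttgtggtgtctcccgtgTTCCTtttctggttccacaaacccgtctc

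The motifs searched were the ETS core AGGAA, the longer GAGGAAG of the macrophage factor PU.1, which contains the ETS core, TGANTCA of AP-1, TTNNGCAA of C/EBP and the E-box CACGTG of lysosomal regulators. AGGAA or its complement was found in 6 of the 7 promoters, against 60.3% of all 32851 promoter windows of this length. Lyz2 held 4 such matches, 2 of them inside a stretch of 11 bases. Mpeg1 held a match to none of the motifs. TGANTCA was found in 2 of the 7, Cd68 with 2 matches and Cd84 with 1, against 6.75% of all windows. Cd68 also held the only TTNNGCAA match, against 9.56% of windows, Laptm5 the only GAGGAAG match, against 10.6%, and no member held CACGTG, against 6.02%. These are matches of letters in a window and not measured sites.

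In vehicle 5xFAD mice all 9 genes were higher than in wild type. The differences ran from 0.82 for Lag3 to 2.95 for Lyz2 on the log2 scale, with a median of 2.0, or from 1.76-fold to 7.71-fold. The 3 vehicle arrays lay above all 3 wild-type arrays for 9 of 9 genes; across all genes 11.2% had groups separated in that direction, and nothing is read from this since the genes were chosen on this difference. The 3 amylin arrays likewise lay above all wild-type arrays for 9 of 9 genes, as did 10.8% of all genes, and the same limit holds. Of all 19938 genes, 8.58% passed the test between vehicle and wild type and 5.21% between amylin and wild type. For vehicle, 3.66% passed the test as higher and 4.92% as lower (limma, Benjamini-Hochberg adjusted p below 0.05).

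**Figure D1:**
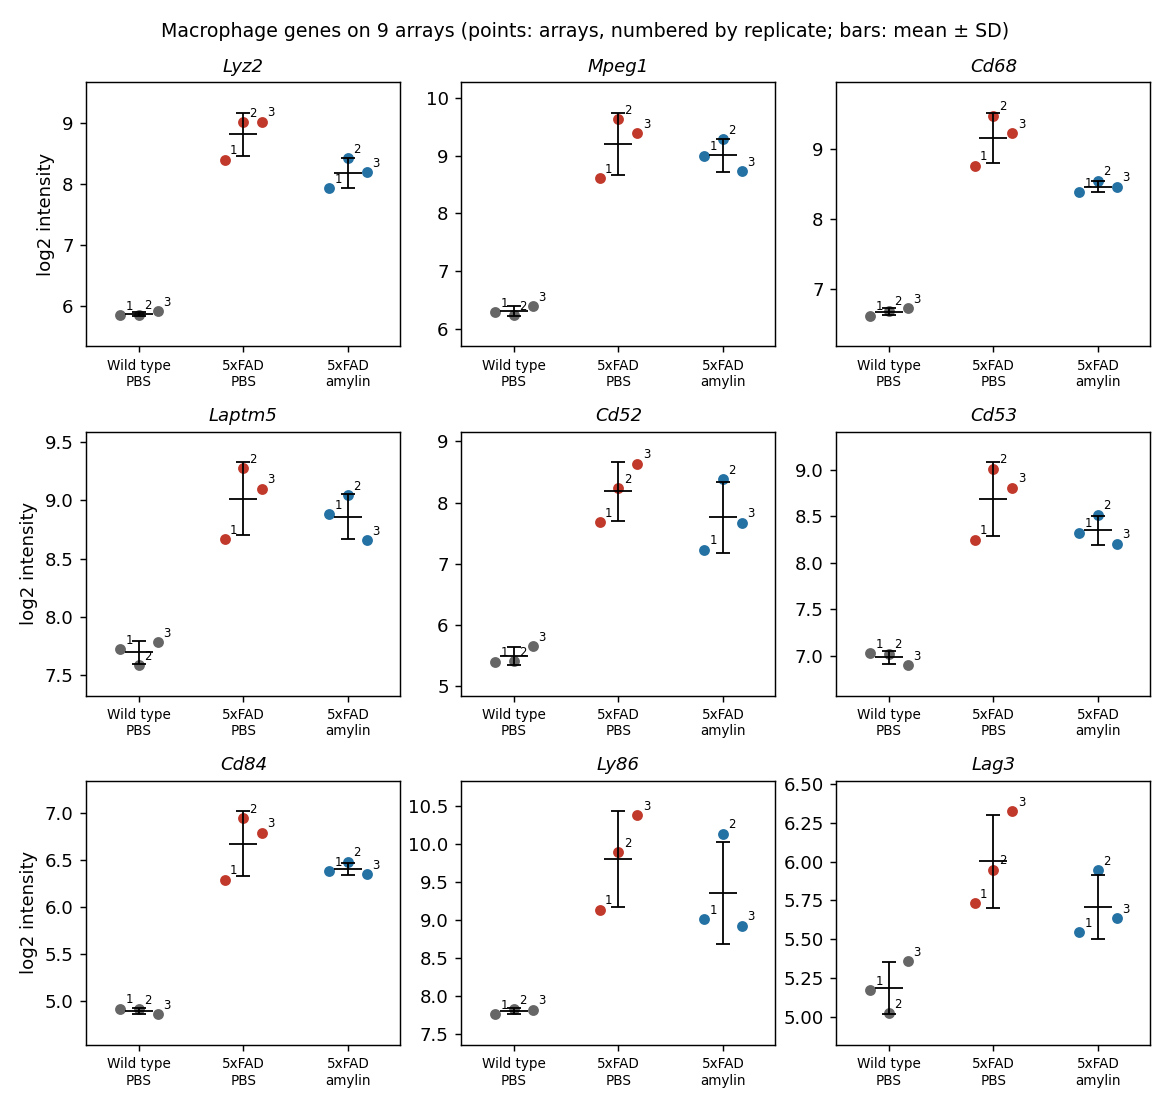
Log2 intensity (vertical axes, a separate scale for each gene) of the 9 macrophage genes on every array, numbered by replicate, with mean ± SD for wild type, 5xFAD with PBS and 5xFAD with amylin (n = 3 each). In every panel the wild-type arrays lie below all 6 arrays of 5xFAD mice, vehicle replicate 1 is the lowest vehicle array and amylin replicate 2 the highest amylin array.

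The lysosomal and phagosomal effectors are taken first. Lyz2, the lysozyme of macrophages that cuts bacterial cell walls, read 5.84, 5.85 and 5.91 in wild type. It read 8.40, 9.02 and 9.02 under vehicle and 7.93, 8.43 and 8.19 under amylin. No 5xFAD array came within 2.02 of the highest wild-type array, whereas the vehicle and amylin arrays overlapped by a narrow margin. The vehicle mean exceeded the wild-type mean by 2.95 ± 0.17 (SE) and the amylin mean exceeded it by 2.32 ± 0.17.

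Lyz1 is the intestinal paralog of Lyz2 and close to it in sequence, so the array may not keep them apart. Lyz1 read 5.67, 5.46 and 5.74 in wild type, 5.74, 6.04 and 6.18 under vehicle and 5.55, 6.0 and 5.63 under amylin. Its vehicle difference of 0.36 ± 0.14 did not pass (limma adjusted p = 0.167).

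Mpeg1, which encodes perforin-2, a pore-forming protein of the phagosome, read 6.29, 6.24 and 6.40 in wild type. It read 8.61, 9.63 and 9.39 under vehicle and 9.0, 9.29 and 8.73 under amylin. All 3 amylin arrays fell inside the vehicle range. The difference from wild type was 2.90 ± 0.23 (SE) under vehicle and 2.70 ± 0.23 under amylin. The latter was the highest difference between amylin and wild type among the 9 genes.

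Cd68, a heavily glycosylated protein of the late endosomal and lysosomal membrane, read 6.62, 6.70 and 6.73 in wild type. It read 8.76, 9.47 and 9.22 under vehicle and 8.38, 8.55 and 8.46 under amylin. Of the 9 genes Cd68 alone had amylin arrays that all lay below all vehicle arrays. It stood 2.47 ± 0.15 (SE) above wild type under vehicle and 1.78 ± 0.15 under amylin. Its amylin arrays were tightly grouped, with an SD of 0.08 against 0.36 under vehicle.

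Laptm5, a lysosomal membrane protein of blood-lineage cells that directs antigen receptors to degradation, read 7.72, 7.59 and 7.78 in wild type. It read 8.66, 9.28 and 9.10 under vehicle and 8.88, 9.04 and 8.66 under amylin. Every 5xFAD array lay at least 0.87 above the highest wild-type array. The difference from wild type was 1.32 ± 0.15 (SE) under vehicle and 1.16 ± 0.15 under amylin, the smallest among the 4 effectors in both 5xFAD groups.

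The surface proteins and their partners follow. Cd52, a short glycosylphosphatidylinositol-anchored glycopeptide of leukocytes, read 5.40, 5.41 and 5.66 in wild type. It read 7.68, 8.24 and 8.63 under vehicle and 7.23, 8.38 and 7.67 under amylin. The amylin arrays spanned 1.15, more than the vehicle arrays, which spanned 0.96; of the 9 genes Cd52 was the only one with a wider amylin span. It stood 2.69 ± 0.29 (SE) above wild type under vehicle and 2.27 ± 0.29 under amylin.

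Ly86, the secreted protein MD-1 that binds the Toll-like receptor homologue Cd180, read 7.76, 7.83 and 7.82 in wild type. It read 9.14, 9.90 and 10.38 under vehicle and 9.02, 10.14 and 8.93 under amylin. The wild-type arrays agreed to within 0.07 while the vehicle arrays spanned 1.24 and the amylin arrays 1.21, and Ly86 had the largest residual SD of the 9 genes (0.53). Its difference from wild type was 2.0 ± 0.35 (SE) under vehicle and 1.56 ± 0.35 under amylin.

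Cd84, a self-binding receptor of the SLAM family on leukocytes, read 4.92, 4.92 and 4.86 in wild type. It read 6.29, 6.94 and 6.79 under vehicle and 6.38, 6.48 and 6.35 under amylin. All 3 amylin arrays again fell inside the vehicle range. Cd84 stood 1.78 ± 0.14 (SE) above wild type under vehicle and 1.51 ± 0.14 under amylin.

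Cd53, a tetraspanin of leukocytes, read 7.03, 7.02 and 6.90 in wild type. It read 8.25, 9.01 and 8.81 under vehicle and 8.33, 8.52 and 8.21 under amylin. The lowest 5xFAD array was 1.18 above the highest wild-type array. The difference from wild type was 1.71 ± 0.17 (SE) under vehicle and 1.37 ± 0.17 under amylin.

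Lag3, an inhibitory receptor of T cells that binds MHC class II and is also transcribed in microglia, read 5.17, 5.02 and 5.36 in wild type. It read 5.73, 5.95 and 6.32 under vehicle and 5.55, 5.94 and 5.64 under amylin. Of the 9 genes it had the smallest distance between groups, its lowest vehicle array being 0.37 and its lowest amylin array 0.19 above the highest wild-type array. The difference from wild type was 0.82 ± 0.16 (SE) under vehicle and 0.52 ± 0.16 under amylin.

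The 9 genes also shared an order of arrays inside each 5xFAD group. The choice of genes did not name this order. The genes were chosen for the same rise and read on the same arrays, so they are not independent. Their counts below describe 1 shared order and not 9 separate findings. Vehicle replicate 1 was the lowest of the vehicle arrays for 9 of 9 genes, as it was for 39.6% of all genes. Amylin replicate 2 was the highest of the amylin arrays for 9 of 9, as it was for 27.3% of all genes. Both held for 9 of 9, against 12.6% of all genes and 6 of 10 microglial identity genes. The top vehicle array was replicate 2 for Mpeg1, Cd68, Laptm5, Cd53 and Cd84 and replicate 3 for Lyz2, Cd52, Ly86 and Lag3. The microglial list as a whole, given below, had the same lowest vehicle array and highest amylin array. The list of 6 astrocyte genes had them too, with per-array means relative to wild type of -0.04, 0.16 and 0.05 under vehicle and 0.01, 0.02 and -0.01 under amylin. The 2 measured red blood cell genes had them as well, with 0.03, 0.10 and 0.06 under vehicle and -0.23, 0.02 and -0.01 under amylin. So did the list of 5 oligodendrocyte genes, whose per-array means relative to wild type were -0.31, -0.07 and -0.24 under vehicle and -0.49, -0.32 and -0.37 under amylin. Of those 5 genes 0 passed between amylin and vehicle (limma, 2 with an unadjusted p below 0.05), with a median of -0.20. In vehicle against wild type 1, Mobp, fell. In amylin against wild type 3 fell, with a list median of -0.27, where 2.86% of all genes fell. All 5 had an unadjusted p below 0.05 there (limma), as did 19.2% of all genes. No other marker list had both this lowest vehicle array and this highest amylin array. Among the phagocyte lists described below, the means of the oxidase, tetraspanin, endotoxin receptor and leukocyte signalling lists had this order as well. So did those of lysozyme and pore-forming, endolysosomal membrane and myeloid transcription factor genes. The metal transport, SLAM family and inhibitory receptor lists had the same lowest vehicle array but another highest amylin array. The part of any of these lists in the order of the arrays, or in the lower amylin values, was not tested.

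The spread between arrays was wider in vehicle 5xFAD than in wild type for 9 of 9 genes. The vehicle arrays spanned 0.59 to 1.24 and the wild-type arrays 0.06 to 0.34. Over all genes the vehicle span was wider in 58.3%, with a median span of 0.14 under vehicle and 0.11 in wild type. Nothing is read from the 9 of 9, since the genes were chosen on these same wild-type and vehicle arrays. Their spans are also not independent of each other. The amylin span was narrower than the vehicle span for 8 of 9 genes and for 43.0% of all genes, whose median amylin span was 0.16. The residual SD of the 9 genes, from 0.20 to 0.53, lay between the 95.5th and the 99.8th percentile of all genes, whose median was 0.09. The SE of a member's difference therefore ran from 0.14 to 0.35, against a median of 0.07 over all genes.

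The effect of amylin within 5xFAD mice is the comparison in which the 9 genes were tested. All 9 means were lower under amylin, against 49.6% of all genes, by 0.15 for Laptm5 to 0.69 for Cd68 on the log2 scale. The median difference was -0.34, where the median of all genes was 0.0006. Lower means were not particular to the 9 genes. They were found for 9 of the 10 microglial identity genes, with a median of -0.26, and for 81 of the 108 other phagocyte genes described below. None of the 9 passed (limma adjusted p from 0.495 to 0.88), and 2, Cd68 and Lyz2, had an unadjusted p below 0.05, as did 6.90% of all genes. Across all genes 0.00502% passed, which is 1 gene, the glucocorticoid-induced chaperone gene Fkbp5, higher by 0.56 ± 0.05 under amylin (limma adjusted p = 0.0233); 0% passed as lower. That count was 0 in 9 of 18 alternatives: with only the 2 groups fitted, with the replicate block, and without any 1 of the wild-type arrays, the amylin arrays or vehicle replicate 3. The vehicle arrays belong to the comparison that chose the genes, so the shared direction is not independent of the choice.

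Cd68 differed by -0.69 ± 0.15 (SE; 95% confidence interval -1.02 to -0.36), which is 1.61-fold lower (limma adjusted p = 0.495). It was lower in 3 of 3 amylin arrays than in any vehicle array, as were 3.81% of all genes. Without vehicle replicate 1 it passed, at -0.89 (limma adjusted p = 0.0247; 0.0247 to 0.924 over the alternatives).

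Lyz2 differed by -0.63 ± 0.17 (SE; interval -1.01 to -0.25), or 1.55-fold lower (limma adjusted p = 0.63). Over the alternatives its difference ran from -0.84 to -0.50. The 95% intervals of the other 7 genes included 0.

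Among those 7, Ly86 differed by -0.45 ± 0.35 (interval -1.22 to 0.33) and Cd52 by -0.42 ± 0.29 (interval -1.07 to 0.23). These were the 2 widest intervals of the 9 genes. With 1 array left out Ly86 ran from -0.83 without amylin replicate 2 to -0.16 without vehicle replicate 3, and Cd52 from -0.73 without amylin replicate 2 to -0.16 without amylin replicate 1. Cd53 differed by -0.34 ± 0.17 (interval -0.71 to 0.03), Lag3 by -0.29 ± 0.16 (-0.64 to 0.06) and Cd84 by -0.27 ± 0.14 (-0.58 to 0.04), with limma adjusted p of 0.747, 0.765 and 0.757. Mpeg1 differed by -0.20 ± 0.23 (interval -0.72 to 0.32) and Laptm5 by -0.15 ± 0.15 (-0.49 to 0.18). Without vehicle replicate 2 the Mpeg1 difference was 0.0083 and that of Laptm5 -0.02. Without vehicle replicate 1 they were -0.50 and -0.33. With 1 array left out Cd53 ran from -0.56 to -0.18, Lag3 from -0.43 to -0.13 and Cd84 from -0.46 to -0.13; the lowest value of each came without vehicle replicate 1, and the highest without vehicle replicate 2 for Cd53 and Cd84 and without vehicle replicate 3 for Lag3.

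**Figure D2:**
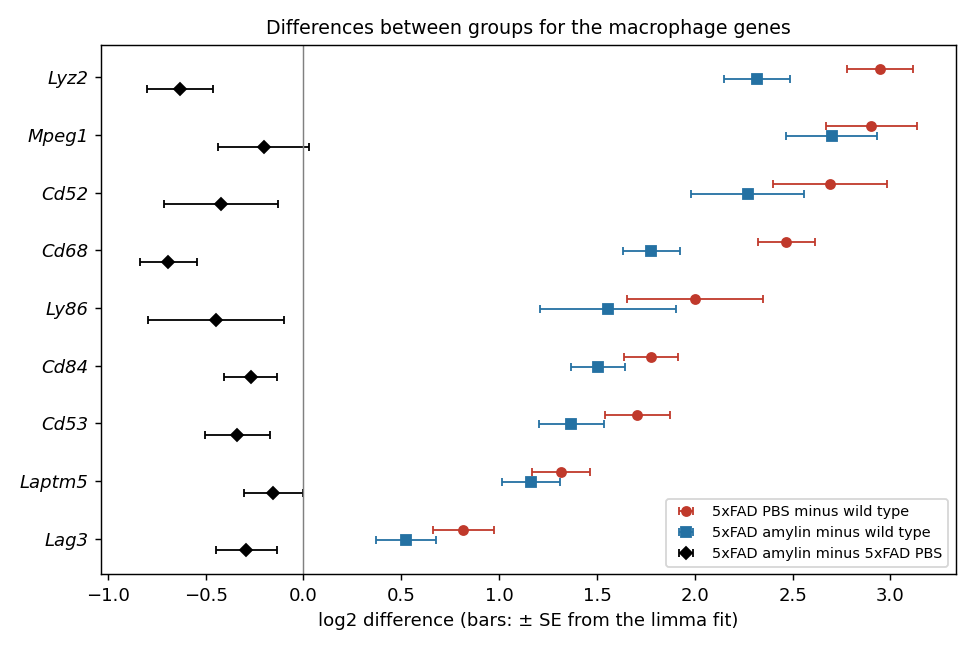
Log2 differences between groups (horizontal axis, ± SE from the limma fit, n = 3 per group) for the 9 macrophage genes, ordered by the difference of vehicle 5xFAD from wild type. Circles and squares, the differences of both 5xFAD groups from wild type, lie between 0.52 and 2.95, and diamonds, amylin against vehicle, between -0.69 and -0.15; the 3 comparisons share arrays.

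Expressed per array as the mean over the 9 genes above the wild-type mean, vehicle replicates 1, 2 and 3 stood at 1.62, 2.28 and 2.31. Amylin replicates 1, 2 and 3 stood at 1.53, 1.98 and 1.55. The groups overlapped, because vehicle replicate 1 lay below amylin replicate 2. The mean was 2.07 ± 0.39 (SD, n = 3) under vehicle and 1.69 ± 0.26 (SD, n = 3) under amylin. Over single genes the median difference of -0.34 shifted to -0.56 when vehicle replicate 1 was left out, and to -0.20 when vehicle replicate 3 was.

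Marker genes of the cells that could carry these transcripts were read on the same arrays. Of 10 measured microglial identity genes 10 rose in vehicle 5xFAD, with a median of 1.05; Gpr34, a receptor for lysophosphatidylserine, rose by 1.55 ± 0.16 (limma adjusted p = 0.000687). Csf1r, the receptor for the survival factor of macrophages, rose by 0.97 ± 0.12 (limma adjusted p = 0.0017). Per array that list stood 0.83 to 1.28 above wild type under vehicle and 0.77 to 0.93 under amylin. The mean of the 9 macrophage genes exceeded the mean of the microglial list by 0.79 to 1.2 on the vehicle arrays and by 0.76 to 1.05 on the amylin arrays. Nothing is read from this excess, since the 9 genes were chosen for a strong rise and the microglial list was not.

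Markers of other leukocytes gave no such rise. Of 9 border macrophage genes 0 passed in vehicle 5xFAD (limma; 3 with an unadjusted p below 0.05), and the per-array list mean was 0.13 to 0.17 above wild type under vehicle. Mrc1, the mannose receptor of those cells, came closest with 0.38 ± 0.10 (limma adjusted p = 0.0502). Of 6 monocyte genes 0 rose and 1 fell, the matrix gene Fn1, which other cells also express. Of 8 neutrophil, 7 T cell and 6 NK cell genes 0 passed with limma, and 0 of them had an unadjusted p below 0.05. Per array, the monocyte list ran from -0.04 to 0.04, the neutrophil list from -0.07 to 0.10 and the T cell list from -0.13 to 0.05 relative to wild type under vehicle. Cd3e, a chain of the T cell receptor complex, read 5.11, 5.01 and 5.06 in wild type and 4.92, 5.04 and 4.83 under vehicle. One gene each of the B cell and dendritic cell lists fell, Pax5 and Flt3, and 0 of either rose. Whether these markers lie above the background of the array is not known from the values used.

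Markers of brain regions moved on the same arrays. Of 5 striatal genes 5 rose, with a per-array mean 1.69 to 1.89 above wild type under vehicle and 1.67 to 1.77 under amylin. Of 6 hippocampal genes 5 fell, with a per-array mean of -1.04 to -0.90 under vehicle. Of 6 thalamic genes 5 fell as well, with per-array means of -0.87, -1.08 and -1.13 under vehicle and -1.21, -0.55 and -1.15 under amylin. Amylin replicate 2, the highest amylin array for all 9 macrophage genes, thus stood apart in the thalamic list. The part of tissue composition in the values of the macrophage genes was not tested. Between vehicle and amylin, 0 of these 17 genes passed with limma, and 0 had an unadjusted p below 0.05.

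**Figure D3:**
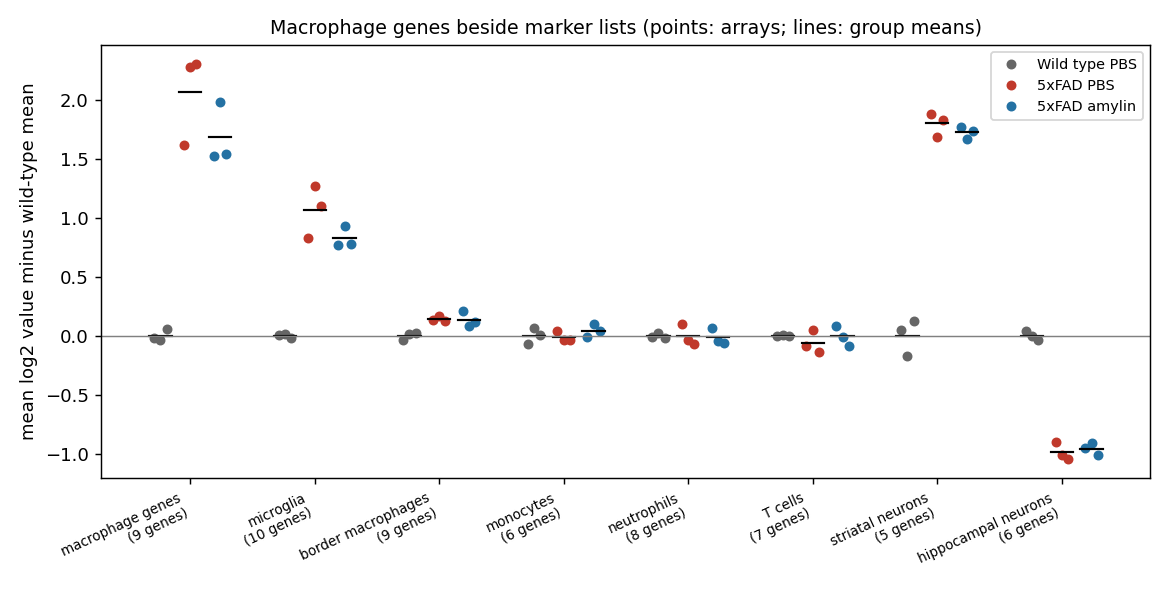
Mean log2 value of each list minus its wild-type mean (vertical axis) on each array, for the 9 macrophage genes and for marker lists of other cells, with lines at the group means (n = 3). The macrophage genes stand at 1.53 to 2.31 and the microglial list at 0.77 to 1.28 in 5xFAD mice, while monocyte, neutrophil and T cell lists stay between -0.13 and 0.10 of wild type and striatal markers rise by 1.67 to 1.89.

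The other genes of the phagocyte machinery were read from 10 lists with 111 genes, 108 of them measured and none among the 9. These lists were chosen with earlier results of these data known, so their counts are a description and not independent support. In vehicle 5xFAD 42 of 108 rose and 0 fell, where 3.66% of all genes rose and 4.92% fell. Under amylin against wild type 28 rose and 0 fell, where 2.35% of all genes rose and 2.86% fell; this comparison shares the wild-type arrays with the first. Without wild-type replicate 1, 2 or 3 the 28 became 15 in each case. Between amylin and vehicle 0 of 108 passed (limma). An unadjusted p below 0.05 was found for 15 of the 108, 14 of them lower, and for 6.9% of all genes.

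Among genes next to the effectors, the phagocyte oxidase, which makes superoxide in the phagosome, rose in 5 of 6 measured genes (median 0.70). Cybb, its catalytic chain, rose by 1.07 ± 0.17, Cyba, the partner chain, by 0.60 ± 0.07 and the proton channel Hvcn1 by 0.99 ± 0.14. Lysozyme and pore-forming relatives did not follow: of 10 measured genes 0 rose and 0 fell (limma; lowest adjusted p 0.167, 1 with an unadjusted p below 0.05), with a median of 0.05. Some of those 10 read low, such as C9 with means of 3.01 in wild type and 2.99 under vehicle. Whether they lie above the background of the array is not known, so the lack of a call says little about them. Of 12 endolysosomal membrane genes 3 rose (median 0.04), among them Cd63 by 0.61 ± 0.11 and Lamp2 by 0.38 ± 0.05. Of 12 genes of metal transport and iron handling, the processes in which Slc11a1 acts, 3 rose (median 0.12): the haem-degrading enzyme gene Hmox1 by 0.50 ± 0.12, the ferritin light chain gene Ftl1 by 0.44 ± 0.12 and the iron exporter gene Slc40a1 by 0.54 ± 0.14.

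Among partners of the surface proteins, Cd180, the receptor that Ly86 binds, rose by 2.40 ± 0.22 (limma adjusted p = 0.000381). It read 5.51, 5.84 and 5.58 in wild type, 7.47, 8.33 and 8.32 under vehicle and 7.58, 7.89 and 7.36 under amylin. In the endotoxin receptor list 3 of 5 rose, and Ly96, the MD-2 relative of Ly86, differed by 0.12 ± 0.10 and did not pass (limma adjusted p = 0.569). Of 10 SLAM family and adaptor genes 3 rose (median 0.21): Cd48 by 1.06 ± 0.14, Ly9 by 0.63 ± 0.11 and Slamf9 by 0.42 ± 0.10.

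Of 11 tetraspanin genes 4 rose (median 0.12), Cd9 by 0.92 ± 0.12, Cd37 by 0.78 ± 0.12, Cd63 as above and Cd151 by 0.25 ± 0.05. Of 13 inhibitory receptors and Lag3 ligands 4 rose (median 0.18). Havcr2, which encodes the checkpoint receptor TIM-3, rose by 1.11 ± 0.14 and Vsir by 0.94 ± 0.14. Cd4, the structural relative of Lag3 that binds the same MHC class II ligand, rose by 0.90 ± 0.07 (limma adjusted p = 0.00021). Cd4 read 5.25, 5.19 and 5.45 in wild type and 6.24, 6.25 and 6.10 under vehicle, without overlap.

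Of 20 leukocyte surface and signalling genes 13 rose (median 0.66), among them Ptprc, the CD45 phosphatase, by 1.21 ± 0.14 and Adgre1, an adhesion receptor used as a macrophage marker, by 1.13 ± 0.14. Of 10 myeloid transcription factor genes 5 rose (median 0.33). Spi1, which encodes PU.1, rose by 0.68 ± 0.12 (limma adjusted p = 0.00722) and Irf8 by 0.80 ± 0.10. Trem2, the lipid-sensing receptor of plaque-associated microglia, rose by 1.62 ± 0.29 (limma adjusted p = 0.00871) and differed by -0.22 ± 0.29 between amylin and vehicle (limma adjusted p = 0.893).

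Under amylin the list genes with the smallest p were all lower than under vehicle. Cd37 read 6.65, 6.56 and 7.09 under vehicle and 6.22, 6.22 and 6.07 under amylin, a difference of -0.59 ± 0.12 (limma adjusted p = 0.495). Lgals3, a galectin that binds Lag3, read 6.56, 6.45 and 6.36 under vehicle and 5.98, 6.19 and 6.18 under amylin, a difference of -0.34 ± 0.07 (limma adjusted p = 0.495). Arhgdib differed by -0.22 ± 0.04 (limma adjusted p = 0.495). In each of the 3 the groups did not overlap, and none passed. Groups were separated in that direction for 14 of the 108 listed genes and 3.81% of all genes. The 3 are named for their small p in this same comparison, so nothing is read from their separation.

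**Figure D4:**
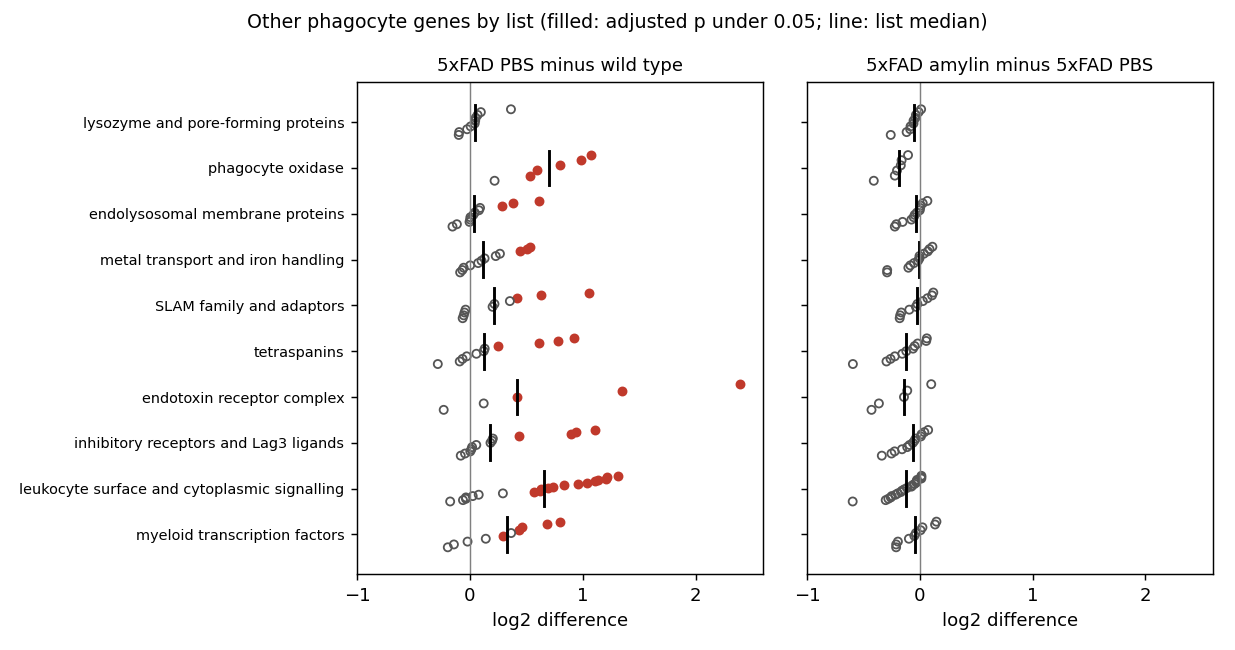
Log2 differences (horizontal axes) of the measured genes of the 10 phagocyte lists, for vehicle 5xFAD against wild type (left) and amylin against vehicle (right), with filled points for an adjusted p below 0.05 and a line at each list's median. On the left 42 genes are filled, all to the right of 0, and the oxidase and leukocyte lists have medians of 0.70 and 0.66; on the right no gene is filled.

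Among genes other than the 9 themselves, those whose profile over the 9 arrays came nearest to the mean profile of the 9 macrophage genes were Ctss, Fcer1g, C1qa, Fcgr2b and Cd180. Nearness is the root mean square deviation of the values after each gene's own 9-array mean was removed. It was 0.16 for Ctss, 0.17 for Fcer1g and 0.19 for each of the other 3. This measure includes the step from wild type to 5xFAD on which the 9 genes were chosen. That step was 1.80 for Ctss, 2.04 for Fcer1g, 1.79 for C1qa, 1.80 for Fcgr2b and 2.40 for Cd180 under vehicle. The median step of the 9 genes was 2.0. Nearness can thus reflect a step of like size, and nothing more is read from it. Ctss, the lysosomal protease cathepsin S, was also the nearest such gene to Cd84, with 0.08. Cd68 lay nearest to Tyrobp, the adaptor of TREM2, with 0.15, and Laptm5 nearest to Ctsd, the lysosomal protease cathepsin D, with 0.09. Lyz2 lay nearest to the chemokine gene Ccl6 with 0.19, and Mpeg1 and Cd52 to C3ar1, the C3a receptor, with 0.23 and 0.27. Ly86 lay nearest to C1qa with 0.24, Cd53 to the oncostatin M receptor gene Osmr with 0.09 and Lag3 to the interleukin-10 receptor gene Il10ra with 0.11. The 9 genes were left out of these searches and can lie nearer to each other. Measured against their own mean profile, Cd84 and Cd53 were closest with 0.16 and 0.19. Lag3, which had the smallest differences from wild type, was farthest with 0.58.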

How the data were processed

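Per the submitters' processing notes, the authors made the deposited log2 intensities with RMA in the R package oligo, without versions; no source used here names the genome build. RMA corrects background, equalises the quantiles of the arrays and summarises each probe set, so differences are relative to the whole array. The deposited values of 35556 probe sets were used unchanged; array medians ran from 5.71 to 5.79. Of the probe sets 21789 name 1 gene, 1621 several and 12146 none, and 21698 matched RefSeq (GRCm38.p6) by Entrez ID. For genes with several probe sets the one with the highest mean was kept, leaving 19938 genes and no filter on low values. The 9 arrays limit the precision.

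A single limma model (version 3.58.1, R 4.3.3, data.table version 1.17.8) was fitted to all arrays with 6 residual and 3.53 prior degrees of freedom, checked on simulated data. A call is a Benjamini-Hochberg adjusted p below 0.05 over all genes. The macrophage genes and the lists and motifs were chosen with earlier results of these data known. Genes named are the macrophage genes, and up to 4 per phagocyte list and 3 per marker list by smallest p in the first comparison. Also named are the nearest profiles and 6 genes fixed by name. C9 is named as an example of low values, and Cd37, Lgals3 and Arhgdib for their small p between amylin and vehicle. Same-numbered arrays are not said to share an animal or day, so no block was used in the main fit. Their deviations correlated from -0.06 to 0.18. Differently numbered arrays were not compared, so these values cannot decide whether the arrays are paired. Alternatives were other normalizations, filters, priors, weights, the block, the mean of probe sets, and leaving out each array.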

Additional observations from a re-analysis of the deposited data

How the results depend on the processing

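Over 18 alternatives, or 17 for the medians and for Cd84 and Lag3, which the filter on the lowest 50% of genes removed, every macrophage gene kept a negative amylin difference except Mpeg1 without vehicle replicate 2 (-0.50 to 0.0083 over the arrays left out). The number of them passed was 0 except without vehicle replicate 1, when Cd68 passed (0 to 1 over the arrays left out). The median amylin difference ran from -0.56 to -0.20 and that of vehicle against wild type from 1.72 to 2.34. Leaving out arrays moved the count of 1710 genes for vehicle against wild type to between 863 and 1779, that of 1039 for amylin against wild type to between 447 and 1086, and that of 1 for amylin against vehicle to between 0 and 7 (0 without 7 of the 9 arrays, 3 without vehicle replicate 2 and 7 without vehicle replicate 1). The last count was 0 with only the 2 groups compared and 0 with the replicate block (1375 genes at unadjusted p below 0.05 in the limma fit without it). The listed phagocyte genes that rose under vehicle numbered 15 with the lowest 50% of genes left out, which removes listed genes, and 31 to 41 without 1 array; under amylin they numbered 13 and 15 to 30, with 0 to 1 lower. With the replicate block, Cd68 had an adjusted p of 0.345 and apart from that count of 1 the other results kept their call, and same-numbered arrays had deviations correlating from -0.06 to 0.18.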
